A study of Mus musculus with 6 samples.

Results

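In 24 genes of the anterior cingulate cortex, a midline frontal area of the mouse brain, the transcripts that the authors listed as differing between Ythdf1 genotypes moved in opposite directions within the same gene. These 24 were among 491 genes with a listed transcript. They were chosen from the authors' deposited table of 537 listed transcripts: a gene entered when at least 1 of its transcripts had a higher mean FPKM in the libraries labelled KO than in those labelled WT and at least 1 had a lower one. FPKM is a transcript's fragments scaled by its length and by the size of the library. Of 36 genes with 2 or more listed transcripts, 9 moved one way only and 27 met the rule, among them Diaph1, Homer1 and Tenm2, which are left out here. The 24 genes hold 55 listed transcripts, 25 of them higher under the KO label and 30 lower, with 2 listed transcripts in 18 genes, 3 in 5 genes and 4 in Rnf123. The FPKM values that chose the genes are given as a description, with no test.

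Most mammalian genes give more than 1 transcript, through alternative first exons, splice sites, cassette exons and polyadenylation sites. In the brain this choice sets which protein domains a neuron or glial cell makes, and it can move while the output of the gene stays level. A transcript whose reading frame is broken early is usually degraded by nonsense-mediated decay, and one that keeps an intron is often held in the nucleus. YTHDF1 is a cytoplasmic protein that binds N6-methyladenosine (m6A) in mRNA and is known for promoting the translation of the bound mRNA.

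The study compared bulk RNA of adult Ythdf1 wild-type mice (WT, 3 libraries) with that of adult Ythdf1 knockout mice (KO, 3 libraries). The labels give no other allele, agent, strain, sex or age in weeks for either group, do not describe the knockout allele, and do not say that each library came from a separate mouse, so a p-value here gauges only the spread among the 6 libraries, part of which may be technical. The Ythdf1 total was no lower under the KO label (57.2 to 62.1 CPM, counts scaled by library size, against 49.0 to 55.8 CPM under the WT label, log2 fold change 0.17 with an SE of 0.066, edgeR adjusted p = 0.93), so every direction below is drawn between labels. Libraries held 61792250 to 69848835 counts, and the counts of any 2 libraries differed by more than counting noise (chi-square over its degrees of freedom, 15.6 to 35.3). Of 6 markers of cortical excitatory neurons (Slc17a7, Tbr1, Camk2a, Neurod6, Cux2 and Fezf2), 3 were higher and 3 lower under the KO label, with a median log2 fold change of 0.02 and values from -0.30 (SE 0.18) in Cux2 to 0.24 (SE 0.063) in Fezf2. None of the 6 was called by edgeR (adjusted p = 0.881 or above; 2 at an unadjusted p under 0.05), and the least abundant, Fezf2, stood at 41.8 ± 2.18 CPM in WT and 49.2 ± 1.67 CPM in KO (SD, n = 3 each).

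Beside the opposite changes in transcript FPKM, the gene totals stood nearly level. Reads from bases that opposing forms share fit both forms, so the FPKM of each form is an estimated split. Any exchange between transcripts named here is an exchange in these estimates. In the gene counts, all 24 genes passed the filter on low counts, 10 had a log2 fold change above 0 and 14 below 0, and the median was -0.02. The median size was 0.06 on the log2 scale, against 0.11 over all 20587 genes tested, which were not matched to the 24 by abundance. Values of the 24 ran from -0.52 in Mfap4 to 0.17 in Myef2. The edgeR quasi-likelihood test, adjusted over all genes, called 0 of the 24 (0% of all genes were called, lowest adjusted p = 0.881 among the 24). DESeq2 also called 0 of them, with 0.132% of all genes called, and limma voom 0, with 0% of all genes. At an unadjusted p under 0.05 it passed 1 of them, Myef2, where 5.26% of all genes passed, as did DESeq2 (1 of 24, 3.66% of all genes) and limma voom (1 of 24, 5.62% of all genes). CPM values of the groups did not overlap in 3 of the 24 (Mfap4, Med12l and Myef2), against 11% of all genes tested. The genes were chosen from transcripts of the same libraries, so nothing is read from these counts.

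**Figure D1:**
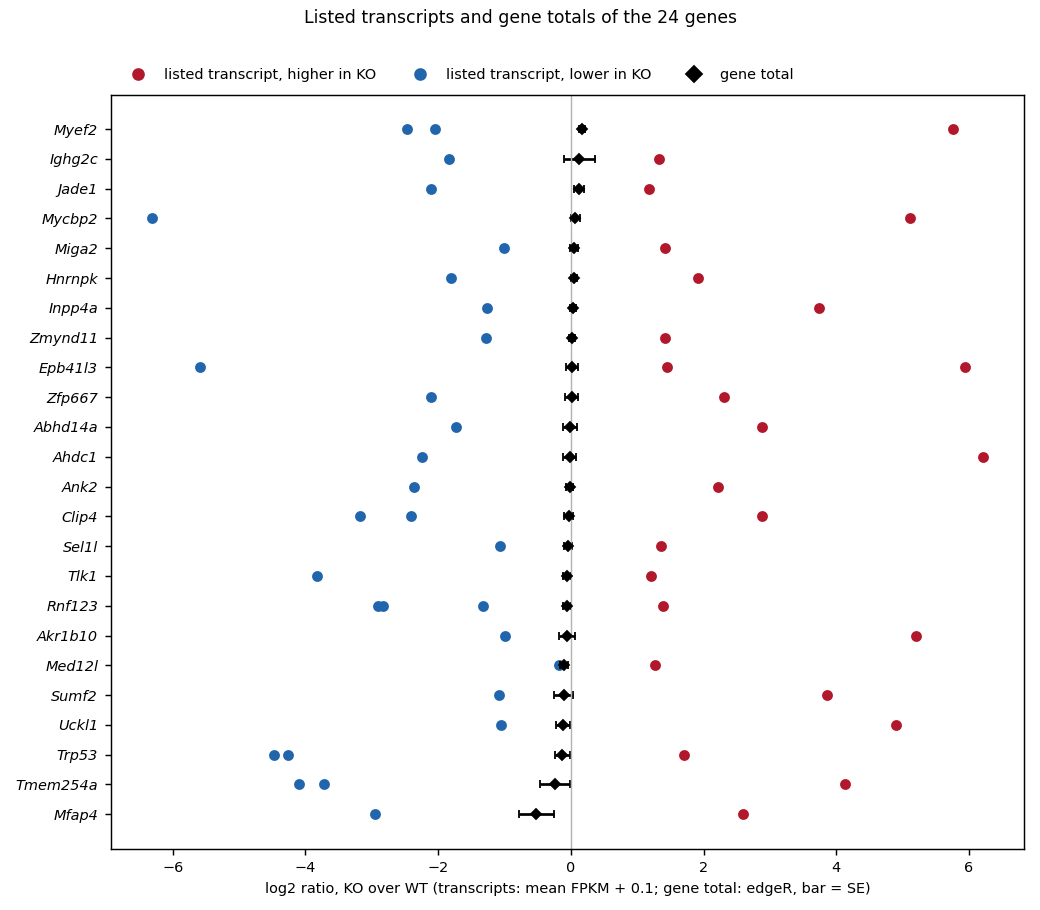
Log2 ratio of libraries labelled KO over libraries labelled WT for each listed transcript (circles, ratio of mean FPKM after adding 0.1 FPKM) and for the gene total (diamonds, edgeR log2 fold change with its SE) of the 24 genes. The circles lie to both sides by the rule that chose the genes, and the totals run from -0.52 in Mfap4 to 0.17 in Myef2.

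How much of a gene the listed transcripts held could be estimated from the files. In listed genes with a single annotated transcript, the depth-scaled gene count was a fixed multiple of FPKM times length, between 1.059 and 1.092 in the 6 libraries, so each transcript is also given as a share of its gene total. Across the 24 genes the transcripts listed as higher held a median of 29.9 percentage points more of the gene total in the libraries labelled KO, and the change for those listed as lower was a median of -32.5 points. In 12 genes the listed transcripts made up over 50% of the total in both groups. In 8 genes they made up under 25% in both, and in Ank2 and Hnrnpk no more than 0.2%. In 21 of the 24 genes the transcripts listed as lower held more of the gene than those listed as higher in WT, and less in KO. The traces of Ank2 and Hnrnpk count among the 21. These shares rest on the FPKM values that chose the genes, so their direction largely follows from the rule and they only describe.

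Single libraries followed the direction of the means in nearly all listed transcripts, which the authors had listed from the same values, with q-values of 2.7e-73 to 0.0476 for the 55 in the authors' deposited table. FPKM of the 3 libraries labelled KO did not overlap that of the 3 labelled WT in 54 of the 55 transcripts, against 92.7% of all 537 listed transcripts, and the exception was 1 of 3 transcripts of Clip4. Listed at 0 in all 3 libraries of a group were 14 of the 55, 7 of them in WT and 7 in KO, in 11 of the genes. That is 25.5% of the transcripts, against 34.9% of the other 482 listed transcripts. An FPKM of 0 can be a failed estimate as well as an absent transcript. In 9 transcripts of 7 genes the mean of the group where they were higher moved by over 1.5 times when 1 library was left out, and those are named with their genes below.

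Sel1l, Rnf123 and Mycbp2 act in protein degradation. Sel1l (ENSMUSG00000020964, chromosome 12, 91806043 to 91849157, GRCm38 here and below) encodes the adaptor that brings misfolded proteins to the ubiquitin ligase of the endoplasmic reticulum membrane. Its 2 listed transcripts share all 5544 bases of the shorter one and differ inside the coding sequence by a single in-frame stretch of 150 bases. That stretch codes for the fibronectin type II domain of the protein and is present in the transcript listed as lower. The same transcript also has 578 bases at its 3' end and 28 at its start that the other lacks. The 150 bases are shown in capitals between 15 bases of each neighbouring side, since they are the one difference in the coding sequence.
Sel1l ENSMUST00000021347, chr12:91833055-91833204 (- strand): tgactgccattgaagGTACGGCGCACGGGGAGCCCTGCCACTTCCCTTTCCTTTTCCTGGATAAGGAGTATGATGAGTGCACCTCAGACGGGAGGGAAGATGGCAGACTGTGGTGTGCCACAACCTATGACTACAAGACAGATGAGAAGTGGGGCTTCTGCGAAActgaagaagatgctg

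FPKM of the form without the stretch, ENSMUST00000167466, was 10.4, 6.9 and 4.17 in WT replicates 1, 2 and 3 and 20.8, 17.4 and 17.1 in KO replicates 1, 2 and 3, an order kept for all values below. The form with the stretch, ENSMUST00000021347, stood at 19.2, 19.6 and 21.2 in WT and 7.09, 11.4 and 10.1 in KO. All 3 libraries labelled KO lay above all 3 labelled WT for the short form (2.58-fold in the means) and below them for the long form (2.1-fold). As a share of the gene, the short form went from 22.3% ± 8.56 to 60.5% ± 7.98 and the long form from 72.0% ± 6.96 to 35.4% ± 7.38 (SD, n = 3 each). The total was 201, 179 and 183 CPM in WT and 175, 191 and 179 CPM in KO, with overlapping groups and a log2 fold change of -0.05 (SE 0.06).

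Rnf123 (ENSMUSG00000041528, chromosome 9, 108051534 to 108083346) encodes a RING-type ubiquitin ligase. Its longest coding transcript ENSMUST00000178267 was listed as higher and its other 3 as lower. The longest coding form had an FPKM of 1.46, 3.55 and 2.93 in WT and 8.35, 6.88 and 5.96 in KO. The coding form ENSMUST00000160649, which ends 557 bases earlier in the genome and shares all of its 3919 bases with the longest one, had 5.52, 4.11 and 3.96 in WT and 0.279, 0.489 and 0.784 in KO. The longest coding form was thus 2.67-fold higher and the shorter coding form 8.75-fold lower in the group means, with no overlap of the libraries. No base is found in the shorter form alone. Its annotated coding part of 3718 bases is not a multiple of 3 and stops inside a coding exon of the longest form. The annotation of the shorter form may thus be incomplete. Both retained-intron transcripts, which keep intron sequence and have no annotated coding part, were lower too: ENSMUST00000159136 stood at 3.16, 0.923 and 2.1 in WT and 0.125, 0.161 and 0.329 in KO, and ENSMUST00000161673 at 0.804, 1.03 and 1.34 in WT and 0.311, 0.209 and 0.569 in KO. Together the 3 lower transcripts went from 52.5% ± 12.2 of the gene to 8.1% ± 3.67, and the longest coding form from 19.5% ± 7.63 to 55.1% ± 10.9 (SD, n = 3 each). The total was 61.1, 63.2 and 62.4 CPM in WT and 56.8, 60.3 and 61.7 CPM in KO, a log2 fold change of -0.06 (SE 0.055).

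Mycbp2 (ENSMUSG00000033004, chromosome 14, 103113411 to 103346814) encodes a very large ubiquitin ligase that shapes axons and synapses. The coding transcript ENSMUST00000159855 was listed as lower and ENSMUST00000239305, annotated for nonsense-mediated decay, as higher, both with 85 exons in the authors' deposited table and with lengths of 15233 and 15247 bases there. The decay-annotated form had an FPKM of 0, 0.005 and 0.003 in WT and 2.72, 3.48 and 4.13 in KO. The coding form had 1.77, 3.76 and 17.9 in WT and was listed at 0 in all 3 libraries labelled KO. WT replicate 3 stood apart from the other two: without it the mean of the coding form in WT was 2.77 in place of 7.83 FPKM, or 11.8 in place of 31.4% of the gene. In the other 5 libraries both forms together held from 7.6% to 16.8% of the gene, and the total itself was 379, 383 and 415 CPM in WT and 387, 443 and 408 CPM in KO, a log2 fold change of 0.07 (SE 0.061).

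**Figure D2:**
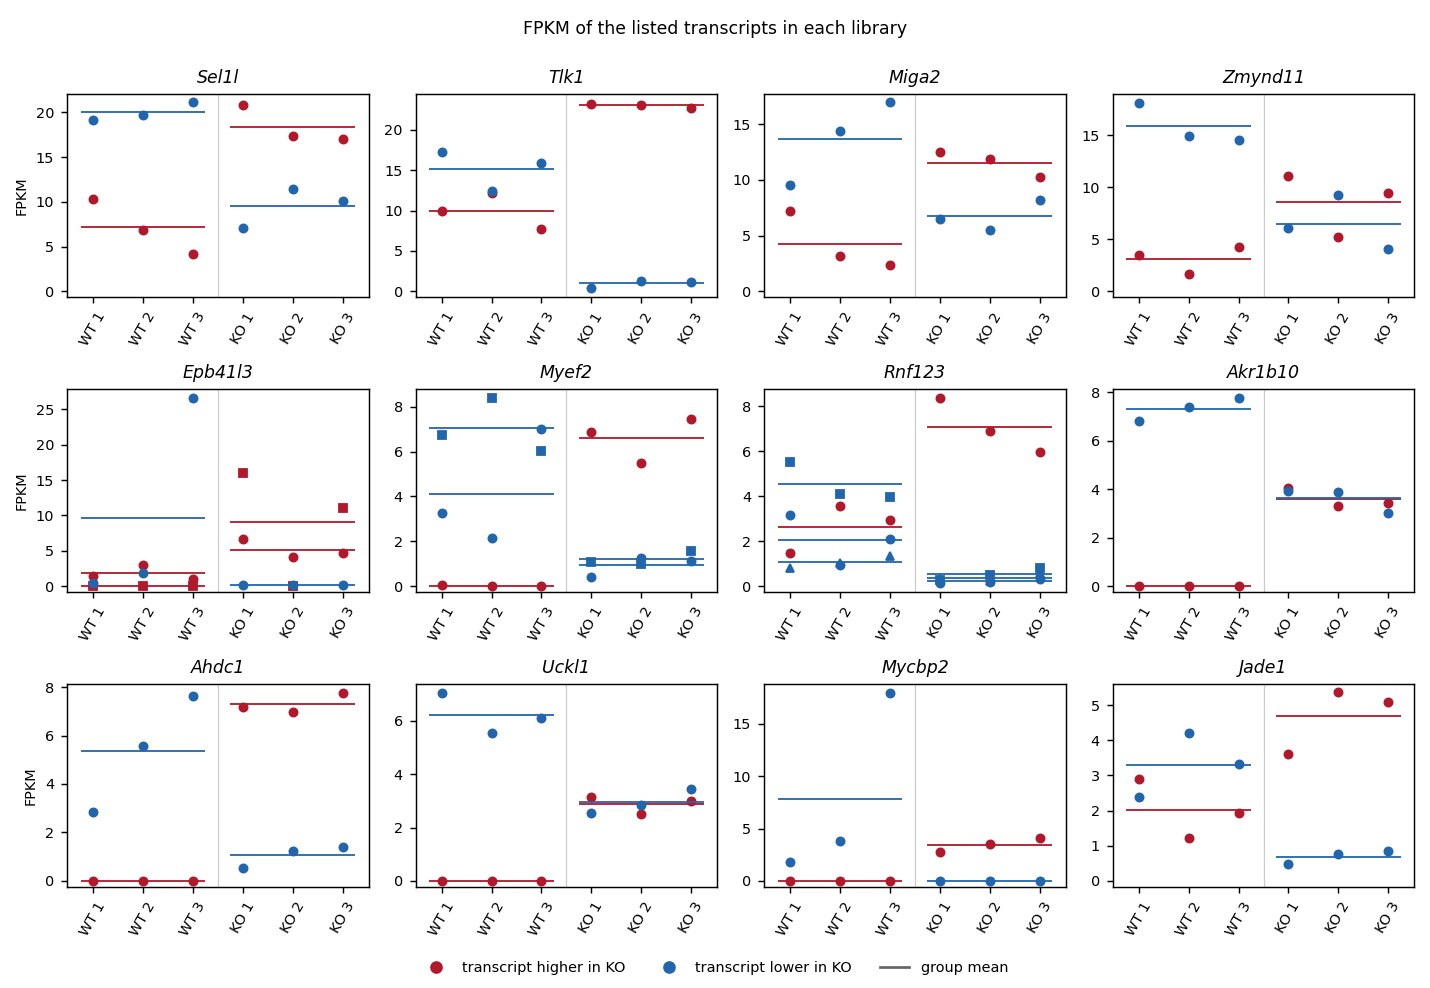
FPKM of the listed transcripts of 12 genes in each of the 6 libraries (points, with different symbols for several transcripts of the same direction; lines, group means). In Sel1l the higher transcript runs from 4.17 to 10.4 FPKM in WT and from 17.1 to 20.8 in KO, while in Epb41l3 and Mycbp2 WT replicate 3 stands far above the other WT libraries.

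Another set of the genes works in the nucleus on chromatin, transcription and RNA. Tlk1 (ENSMUSG00000041997, chromosome 2, 70712407 to 70825728), a kinase that acts on histone chaperones during chromatin assembly, showed a nearly complete exchange in estimated FPKM. Its coding transcript ENSMUST00000038584 had an FPKM of 9.92, 12.2 and 7.66 in WT and 23.3, 23.1 and 22.7 in KO. The transcript ENSMUST00000135128, annotated as processed and with no coding part, had 17.2, 12.4 and 15.9 in WT and 0.456, 1.34 and 1.12 in KO. The non-coding form carries 2 exons of 253 and 69 bases that the coding form lacks and starts 331 bases further in. All KO libraries lay above all WT libraries for the coding form and below them for the other. The coding form went from 39.3% ± 8.87 of the gene to 95.4% ± 1.88 and the non-coding form from 59.9% ± 8.79 to 4.0% ± 1.85 (SD, n = 3 each), so that both together held nearly the whole gene in every library. The total did not part the groups, at 125, 113 and 108 CPM in WT and 108, 114 and 111 CPM in KO, a log2 fold change of -0.06 (SE 0.062).

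Zmynd11 (ENSMUSG00000021156, chromosome 13, 9684833 to 9765330) encodes a reader of histone methylation in transcribed genes. The listed transcripts differ in the coding part by 1 in-frame exon of 162 bases, present in the transcript listed as higher, which codes for a part of the PHD finger, a zinc-binding fold that contacts histones. The higher transcript also has 154 bases more at its start and 5 more at its end. The exon is shown in capitals because it is the difference in the coding part.
Zmynd11 ENSMUST00000110636, chr13:9710146-9710307 (- strand): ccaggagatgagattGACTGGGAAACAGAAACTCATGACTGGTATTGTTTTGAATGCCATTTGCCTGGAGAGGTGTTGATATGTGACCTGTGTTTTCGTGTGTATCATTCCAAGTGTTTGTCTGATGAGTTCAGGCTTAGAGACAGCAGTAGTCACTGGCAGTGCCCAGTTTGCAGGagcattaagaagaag

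FPKM of the form with the exon, ENSMUST00000110636, was 3.51, 1.69 and 4.24 in WT and 11.1, 5.18 and 9.44 in KO, and that of the form without it, ENSMUST00000062658, was 18.1, 14.9 and 14.5 in WT and 6.09, 9.24 and 4.11 in KO. The libraries of the groups did not overlap for either form, although KO replicate 2 lay nearest to WT for both. The form with the exon went from 6.3% ± 2.66 to 17.2% ± 6.55 of the gene and the form without it from 29.4% ± 3.14 to 11.8% ± 4.32 (SD, n = 3 each), so that most of the gene lay in transcripts that were not listed. The total was 224, 217 and 216 CPM in WT and 213, 233 and 221 CPM in KO, a log2 fold change of 0.02 (SE 0.05), which was -0.01 without KO replicate 2.

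Myef2 (ENSMUSG00000027201, chromosome 2, 125084628 to 125123661) encodes a nucleic-acid-binding protein described as a repressor of the myelin basic protein gene. The transcript listed as higher has a 51-base exon that the lower transcript ENSMUST00000147105 lacks, and it lacks a 72-base exon that the lower transcript ENSMUST00000152367 has. Both exons keep the reading frame, and they are shown in capitals since they set the 3 forms apart in the coding sequence. Outside it, the higher transcript has 1122 bases at the 3' end that ENSMUST00000152367 lacks. In turn, ENSMUST00000152367 has 3' end exons of 149 and 27 bases that the higher transcript lacks. ENSMUST00000147105 has 38 bases more at its start than the higher transcript.
Myef2 ENSMUST00000142718, chr2:125098797-125098847 (- strand): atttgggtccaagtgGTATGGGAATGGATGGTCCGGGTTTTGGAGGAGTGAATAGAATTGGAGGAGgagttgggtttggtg
Myef2 ENSMUST00000152367, chr2:125097563-125097634 (- strand): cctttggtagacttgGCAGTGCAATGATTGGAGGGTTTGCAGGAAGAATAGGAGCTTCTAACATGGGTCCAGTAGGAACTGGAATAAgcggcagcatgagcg

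The higher form, ENSMUST00000142718, was at or near 0 in WT, at 0.07, 0 and 0 FPKM, and at 6.88, 5.49 and 7.46 FPKM in KO. Of the lower forms, ENSMUST00000152367 stood at 6.74, 8.37 and 6.04 in WT and 1.06, 0.966 and 1.55 in KO, and ENSMUST00000147105 at 3.24, 2.13 and 7.00 in WT and 0.401, 1.25 and 1.11 in KO. Without WT replicate 3 the WT mean of the latter was 2.68 in place of 4.12 FPKM. The lower forms together went from 39.7% ± 8.05 of the gene to 6.9% ± 2.13 and the higher form reached 25.8% ± 4.09 in KO (SD, n = 3 each). The total was 73, 70.2 and 72.1 CPM in WT and 79.3, 82.1 and 81.5 CPM in KO, without overlap, and its log2 fold change of 0.17 (SE 0.049) was the highest of the 24 genes (edgeR unadjusted p = 0.00596, adjusted p = 0.881). The 10 markers of mature oligodendrocytes, the myelin-making cells, were all higher in the same libraries, with a median log2 fold change of 0.37 and summed levels of 3810 to 4550 CPM in WT and 4280 to 6520 CPM in KO. That median was 0.19 without KO replicate 1. Their part in the level of Myef2 was not tested, and in bulk RNA a change in the number of cells of a type and a change in the RNA per cell cannot be told apart.

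Jade1 and Ahdc1 kept the coding sequence whole while the listed transcripts changed. Jade1 (ENSMUSG00000025764, chromosome 3, 41555731 to 41616864) encodes a scaffold subunit of the HBO1 histone acetyltransferase. Its listed transcripts begin at first exons 7638 bases apart and share their coding exons. FPKM from the downstream first exon, ENSMUST00000163764, was 2.91, 1.22 and 1.92 in WT and 3.62, 5.36 and 5.09 in KO, and from the upstream one, ENSMUST00000026865, 2.37, 4.2 and 3.32 in WT and 0.472, 0.763 and 0.835 in KO. The downstream form went from 24.1% ± 11.3 to 51.6% ± 13.6 of the gene and the upstream form from 37.6% ± 8.06 to 7.5% ± 2.53 (SD, n = 3 each), with no overlap of the FPKM values between groups. The total was 48.8, 55.8 and 48.4 CPM in WT and 59.3, 53.4 and 53.1 CPM in KO, a log2 fold change of 0.12 (SE 0.076).

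Ahdc1 (ENSMUSG00000037692, chromosome 4, 133011260 to 133078110) encodes an AT-hook protein that binds DNA. The transcript listed as higher, ENSMUST00000044521, is wholly contained in the one listed as lower, ENSMUST00000105916, and both code for the same 4782 bases, while the lower one starts 698 bases further upstream and reaches 465 bases further at its 3' end. The contained form was listed at 0 in all 3 libraries labelled WT and at 7.18, 6.98 and 7.75 FPKM in KO. The longer form stood at 2.86, 5.55 and 7.64 in WT and 0.51, 1.25 and 1.4 in KO. In KO the contained form held 89.9%, 79.0% and 77.5% of the gene in the 3 libraries and the longer form 6.9%, 15.3% and 15.2%, while in WT the longer form held 36.3%, 67.1% and 83.7%. The total was 55.6, 58.3 and 64.5 CPM in WT and 51.5, 58.4 and 66.3 CPM in KO, a log2 fold change of -0.02 (SE 0.095) that was 0.04 without WT replicate 3 and 0.07 when KO replicate 1 was left out.

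The other nuclear genes are Trp53, Med12l, Zfp667 and Hnrnpk. In Trp53 (ENSMUSG00000059552, chromosome 11, 69580359 to 69591873), the gene of the tumour suppressor p53, the listed coding transcript ENSMUST00000171247 had an FPKM of 0.582, 1.55 and 1.55 in WT and 4.45, 4.38 and 3.81 in KO. The other listed Trp53 transcripts, ENSMUST00000108657 at 3.15, 1.24 and 2.00 and ENSMUST00000108658 at 1.06, 2.26 and 2.15 FPKM in WT, were listed at 0 in all 3 libraries labelled KO. The first of these differs from the higher form by 46 bases at its start and 1 at its end, and the second lacks a stretch of 96 bases, 52 of them coding in the higher form. Annotated coding parts also differ, with 1143 bases in the higher form, 1134 in ENSMUST00000108657 and 1170 in ENSMUST00000108658. The Trp53 total was 16.9, 19.8 and 21.4 CPM in WT and 17.9, 18.7 and 16.4 CPM in KO, with overlapping groups, and had a log2 fold change of -0.13 (SE 0.11).

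Med12l (ENSMUSG00000056476, chromosome 3, 59005825 to 59318682), a relative of the Mediator subunit Med12, had listed transcripts that differ only by a 105-base in-frame exon present in the lower form. They reached no more than 0.27 FPKM in any library, and without KO replicate 2 the mean of the higher form in KO was 0.078 in place of 0.142 FPKM. In Zfp667 (ENSMUSG00000054893, chromosome 7, 6286579 to 6307883), a zinc finger gene, the listed forms share the coding exons and differ in the first exons and at the 3' end, where the higher form has 180 bases more. The higher form had an FPKM of 0, 0 and 0.025 in WT and 0.819, 0.077 and 0.416 in KO, with a KO mean of 0.246 in place of 0.437 FPKM without KO replicate 1. The lower Zfp667 form had 0.505, 0.538 and 0.022 in WT and 0, 0 and 0.016 in KO. For Hnrnpk (ENSMUSG00000021546, chromosome 13, 58391142 to 58403343), an RNA-binding protein of splicing, a decay-annotated form went from 0.036, 0.126 and 0.047 to 0.313, 0.635 and 0.682 FPKM and a retained-intron form went from 0.358, 0.788 and 0.641 to 0.046, 0.137 and 0.115 FPKM. These are traces beside a gene total of 291, 299 and 276 CPM in WT and 300, 302 and 293 CPM in KO. The total log2 fold changes were -0.10 (SE 0.057) in Med12l, 0.01 (SE 0.092) in Zfp667 and 0.05 (SE 0.047) in Hnrnpk.

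Among enzymes, Akr1b10, Uckl1 and Sumf2 had the same layout, a coding transcript listed as lower and a decay-annotated one listed as higher that differ inside the transcript by a stretch whose length is not a multiple of 3, and also at their ends. Akr1b10 (ENSMUSG00000061758, chromosome 6, 34384218 to 34396950) belongs to the aldo-keto reductases, which reduce aldehydes. The coding form has 25 bases at the start of an exon that the decay-annotated form skips, and 63 bases more at its start and 3 at its end. Uckl1 (ENSMUSG00000089917, chromosome 2, 181569149 to 181584892), a relative of the uridine-cytidine kinases, has a 17-base exon in the coding form alone, which also has 36 bases more at its start and 14 at its end. In Sumf2 (ENSMUSG00000025538, chromosome 5, 129846986 to 129864050), a relative of the enzyme that activates sulfatases in the endoplasmic reticulum, it is the decay-annotated form that holds an added exon, of 44 bases, while the coding form has 618 bases at the 3' end and 34 at the start that the other lacks. The 3 stretches are shown in capitals because each changes the reading frame.
Akr1b10 ENSMUST00000038383, chr6:34390055-34390079 (+ strand): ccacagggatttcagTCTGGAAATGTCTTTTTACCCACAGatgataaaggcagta
Uckl1 ENSMUST00000057816, chr2:181572470-181572486 (- strand): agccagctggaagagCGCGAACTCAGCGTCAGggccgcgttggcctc
Sumf2 ENSMUST00000137357, chr5:129854464-129854507 (+ strand): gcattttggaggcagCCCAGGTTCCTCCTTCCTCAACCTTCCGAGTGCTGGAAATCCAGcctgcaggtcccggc

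The decay-annotated form of Akr1b10, ENSMUST00000139156, was listed at 0 in all 3 libraries labelled WT and at 4.05, 3.3 and 3.45 FPKM in KO. Its coding form, ENSMUST00000038383, stood at 6.83, 7.4 and 7.75 in WT and 3.95, 3.88 and 3.03 in KO. In KO the gene was thus split nearly evenly, with 43.4%, 39.8% and 48.3% in the decay-annotated form and 45.3%, 50.1% and 45.5% in the coding form, where the coding form had held 89.9%, 90.2% and 92.1% in WT. The total was 11.2, 12 and 12.3 CPM in WT and 12.6, 11.5 and 9.92 CPM in KO, with a log2 fold change of -0.06 (SE 0.12) that was 0.02 without KO replicate 3.

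Uckl1 showed the same pattern. The decay-annotated form, ENSMUST00000129469, was listed at 0 in all 3 libraries labelled WT and at 3.16, 2.52 and 2.99 FPKM in KO, and the coding form, ENSMUST00000057816, went from 7.04, 5.54 and 6.12 to 2.56, 2.86 and 3.43 FPKM. In KO the decay-annotated form held 34.4%, 30.4% and 32.0% of the gene and the coding form 28.9%, 35.8% and 38.1%, against 66.4%, 65.5% and 67.0% for the coding form in WT. The total was 21, 16.7 and 18.1 CPM in WT and 17.3, 16 and 18.1 CPM in KO, a log2 fold change of -0.12 (SE 0.11). Of the 24 genes, Uckl1 lay nearest to Ythdf1, 0.648 Mb away on chromosome 2, where 4 of the 24 genes (16.7%) and 47 of all 491 listed genes (9.57%) lie.

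The decay-annotated form of Sumf2, ENSMUST00000137357, had an FPKM of 0.098, 0.003 and 0.101 in WT and 2.3, 1.73 and 3.00 in KO, and the coding form, ENSMUST00000171300, 3.58, 3.41 and 3.43 in WT and 1.4, 1.68 and 1.67 in KO. The coding form went from 96.5% ± 1.2 of the gene to 48.1% ± 7.32 (SD, n = 3 each). The Sumf2 total was 7.29 to 9.56 CPM over the 6 libraries, with a log2 fold change of -0.11 (SE 0.14).

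**Figure D3:**
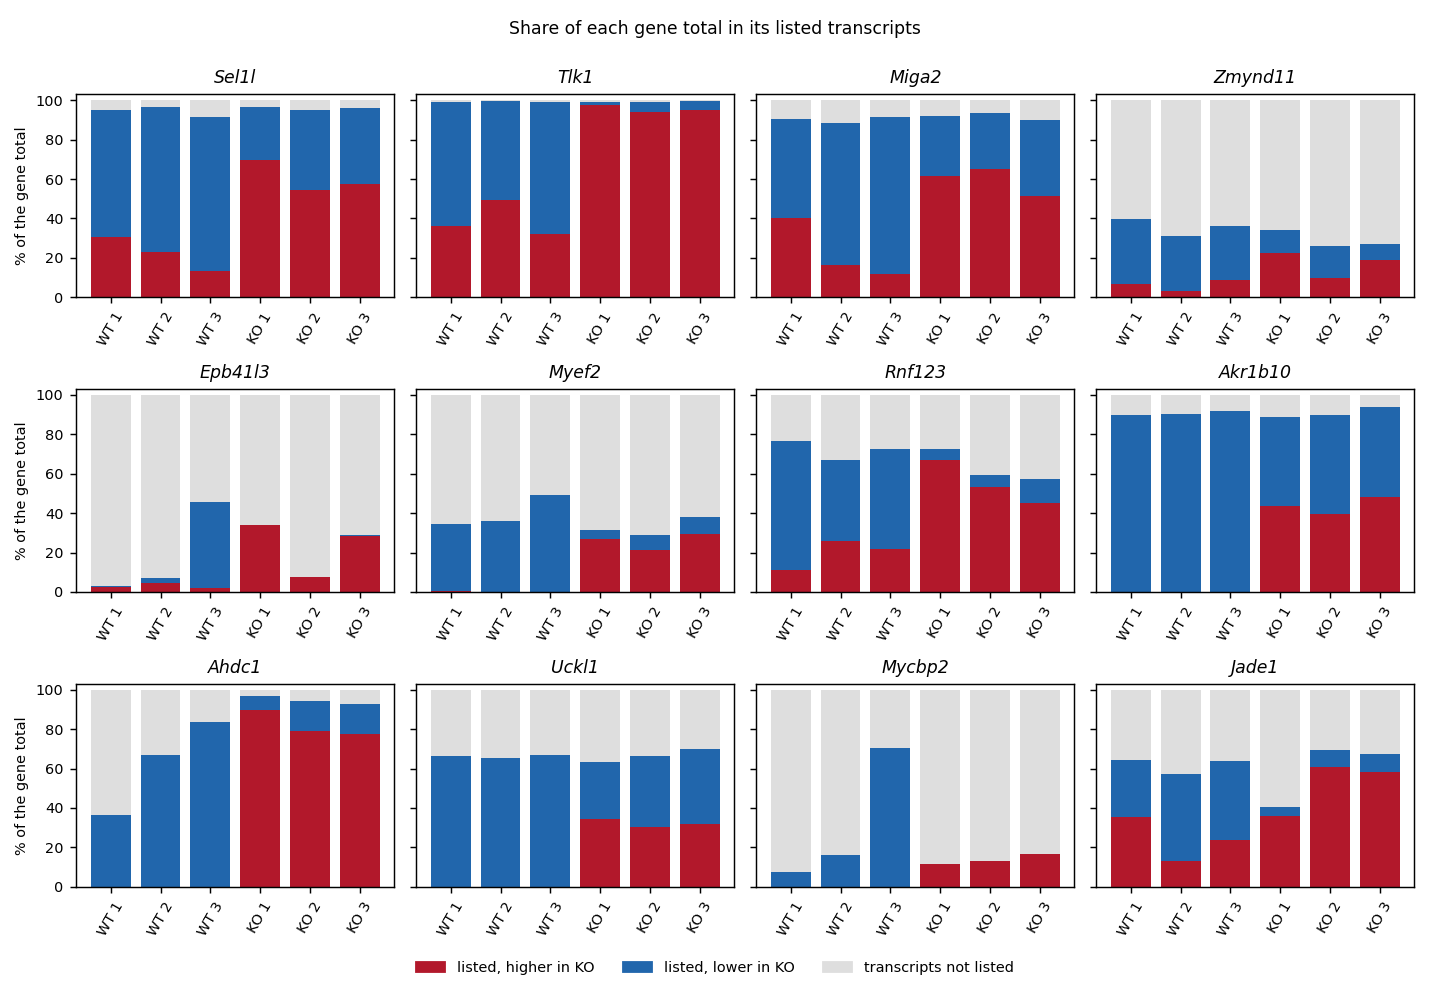
Share of the gene total held by transcripts listed as higher (red), by transcripts listed as lower (blue) and by transcripts not listed (grey) in each library, for 12 genes; the axis runs from 0 to 100%. In Tlk1 the higher transcript holds 95.4% of the gene on average in KO, and in Akr1b10 and Uckl1 the higher transcript is at 0 in all 3 WT libraries.

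Inpp4a and Abhd14a complete the enzymes. Inpp4a (ENSMUSG00000026113, chromosome 1, 37299865 to 37410736) encodes an enzyme that removes a phosphate from phosphoinositide lipids and limits glutamate toxicity in neurons. The transcripts differ in the coding part by a 33-base in-frame exon, shown in capitals as the only coding difference between them.
Inpp4a ENSMUST00000114933, chr1:37383339-37383371 (+ strand): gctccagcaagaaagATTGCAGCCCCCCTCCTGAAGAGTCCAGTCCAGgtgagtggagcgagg

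The form with that exon went from 2.25, 2.52 and 2.75 FPKM in WT to 0.945, 0.849 and 1.18 in KO, and the form without it was listed at 0 in all 3 libraries labelled WT and at 1.43, 0.712 and 1.57 FPKM in KO. Those are small parts of the gene, no more than 5.6% ± 0.619 of the total on average (SD, n = 3), and the total was 146, 147 and 142 CPM in WT and 145, 152 and 148 CPM in KO, a log2 fold change of 0.03 (SE 0.046). In Abhd14a (ENSMUSG00000042210, chromosome 9, 106440051 to 106447678), of the alpha/beta hydrolase family, the longer coding form had an FPKM of 0.257, 0.225 and 0 in WT and 1.67, 1.84 and 1.97 in KO. A shorter Abhd14a form had 0.061, 0.513 and 0.125 in WT, a mean of 0.093 in place of 0.233 FPKM without WT replicate 2, and was listed at 0 in all 3 libraries labelled KO. The Abhd14a total had a log2 fold change of -0.01 (SE 0.11), with values from 0.01 to 0.06 when WT replicate 3, KO replicate 2 or KO replicate 3 was left out.

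Epb41l3, Miga2, Ank2 and Clip4 belong to the membrane skeleton, the microtubules and the mitochondrial surface. Epb41l3 (ENSMUSG00000024044, chromosome 17, 69075683 to 69289989) encodes protein 4.1B, which ties membrane proteins to spectrin and actin beside the node of Ranvier. All 3 listed transcripts are coding. ENSMUST00000238898 had an FPKM of 1.45, 2.96 and 1.03 in WT and 6.61, 4.05 and 4.71 in KO, ENSMUST00000239167 had 0.029, 0.06 and 0.057 in WT and 16, 0.067 and 11 in KO, and ENSMUST00000112680 had 0.419, 1.87 and 26.6 in WT and 0.102, 0.109 and 0.093 in KO. The first of these parted the groups evenly, while the second was high in KO replicates 1 and 3 only and the third in WT replicate 3 alone. Without WT replicate 3 the WT mean of the third was 1.15 in place of 9.62 FPKM, and without KO replicate 1 the KO mean of the second was 5.53 in place of 9.02 FPKM. The total was 280, 310 and 263 CPM in WT and 324, 264 and 274 CPM in KO, a log2 fold change of 0.02 (SE 0.086), which was -0.04 without WT replicate 3 and, leaving out KO replicate 1 instead, -0.08.

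Miga2 (ENSMUSG00000026858, chromosome 2, 30364233 to 30385521) encodes a mitoguardin, a protein of the outer mitochondrial membrane that takes part in fusion and lipid handling. Its listed transcripts code for the same 1779 bases, and the higher one holds 270 bases before the coding start that the lower one lacks, while the lower one has 63 more at its start and 2 at its end. The higher form, ENSMUST00000100214, had an FPKM of 7.22, 3.14 and 2.4 in WT and 12.5, 11.9 and 10.3 in KO, and the lower form, ENSMUST00000077977, 9.55, 14.4 and 17 in WT and 6.54, 5.51 and 8.24 in KO. WT replicate 1 lay nearest to the KO libraries for both forms, but the groups did not overlap. The higher form went from 23.0% ± 15.2 to 59.3% ± 7.16 of the gene and the lower form from 67.2% ± 15.2 to 32.5% ± 5.49 (SD, n = 3 each). The total was 68.8, 72.5 and 77.1 CPM in WT and 77, 71 and 78.2 CPM in KO, a log2 fold change of 0.05 (SE 0.063).

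Ank2 (ENSMUSG00000032826, chromosome 3, 126921612 to 127499350), which encodes ankyrin-B, an anchor of membrane proteins on the spectrin skeleton, had a total of 770, 746 and 728 CPM in WT and 706, 758 and 749 CPM in KO. Its listed transcripts were traces, one at 0.312, 0.461 and 0.387 FPKM in KO and near 0 in WT, the other at 0.384, 0.439 and 0.417 FPKM in WT and listed at 0 in all 3 libraries labelled KO. They differ in the coding part by an in-frame exon of 24 bases, present in the lower form. Clip4 (ENSMUSG00000024059, chromosome 17, 71768473 to 71864273), a relative of microtubule plus-end proteins, was uneven between libraries. Its higher form had 1.67, 0.254 and 0.094 FPKM in KO, and without KO replicate 1 that mean was 0.174 in place of 0.672 FPKM. The lower Clip4 form ENSMUST00000229952 had 0.15, 0.22 and 1.03 FPKM in WT, with a mean of 0.185 in place of 0.465 without WT replicate 3, and the decay-annotated lower form had 0.15, 2.81 and 2.22 in WT and 0.185, 0.052 and 0.07 in KO, so that its groups overlapped. The total log2 fold changes were -0.02 (SE 0.048) in Ank2, which was 0.01 without KO replicate 1, and -0.03 (SE 0.066) in Clip4, which was 0.01 without WT replicate 2.

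Mfap4, Ighg2c and Tmem254a had few counts, at most 5.13 CPM in any library. Mfap4 (ENSMUSG00000042436, chromosome 11, 61485431 to 61488900), a microfibril-associated protein of the extracellular matrix, had a coding transcript listed at 0 in all 3 libraries labelled WT and at 0.42, 0.457 and 0.628 FPKM in KO. A non-coding Mfap4 transcript with another first exon stood at 0.644, 0.673 and 0.693 FPKM in WT and was listed at 0 in all 3 libraries labelled KO. The Mfap4 total was 1.88, 1.27 and 1.88 CPM in WT and 1.05, 1.26 and 1.21 CPM in KO, without overlap though the nearest values differed by little, and its log2 fold change of -0.52 (SE 0.26) was the lowest of the 24 (edgeR unadjusted p = 0.075, adjusted p = 0.942). The 8 markers of the meninges, the fibroblast-rich covering of the brain, were all lower under the KO label. Their median log2 fold change was -0.84, and their levels summed to 90.0 to 178 CPM in WT and 60.0 to 76.6 CPM in KO. Their part in the level of Mfap4 was not tested.

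Ighg2c (ENSMUSG00000076612, chromosome 12, 113285325 to 113288932) is a constant-region gene of the immunoglobulin heavy chain, whose transcripts end either in a secreted tail or in membrane exons. The secreted form, ENSMUST00000195192, had an FPKM of 0.609, 0.91 and 0.583 in WT and 2.48, 1.85 and 1.39 in KO, and the membrane form, ENSMUST00000103416, 0.985, 0.828 and 1.78 in WT and 0.095, 0.441 and 0.254 in KO. The first membrane exon, shown in capitals because it sets the membrane form apart, has 131 bases.
Ighg2c ENSMUST00000103416, chr12:113285912-113286042 (- strand): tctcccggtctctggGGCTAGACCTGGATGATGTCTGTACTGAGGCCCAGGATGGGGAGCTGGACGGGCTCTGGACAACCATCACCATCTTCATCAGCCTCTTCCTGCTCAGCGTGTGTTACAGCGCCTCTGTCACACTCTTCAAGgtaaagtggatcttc

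The membrane form went from 63.1% ± 13.4 of the gene to 13.7% ± 8.61 (SD, n = 3 each), in a gene of only 2.03, 2.16 and 3.02 CPM in WT and 3.04, 2.82 and 2.03 CPM in KO and with a log2 fold change of 0.13 (SE 0.24). Tmem254a (ENSMUSG00000072676, chromosome 14, 25923300 to 25927672), a membrane protein gene, passed from ENSMUST00000100811 at 2.17, 2.44 and 3.25 and the decay-annotated ENSMUST00000100813 at 2.03, 1.34 and 0.945 FPKM in WT to ENSMUST00000185006 at 1.73, 2.09 and 1.11 FPKM in KO, which was listed at 0 in all 3 libraries labelled WT. Copies of this gene, Tmem254b and Tmem254c, match it at 95% identity or more, so its counts are uncertain. The Tmem254a total had a log2 fold change of -0.24 (SE 0.23).

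**Figure D4:**
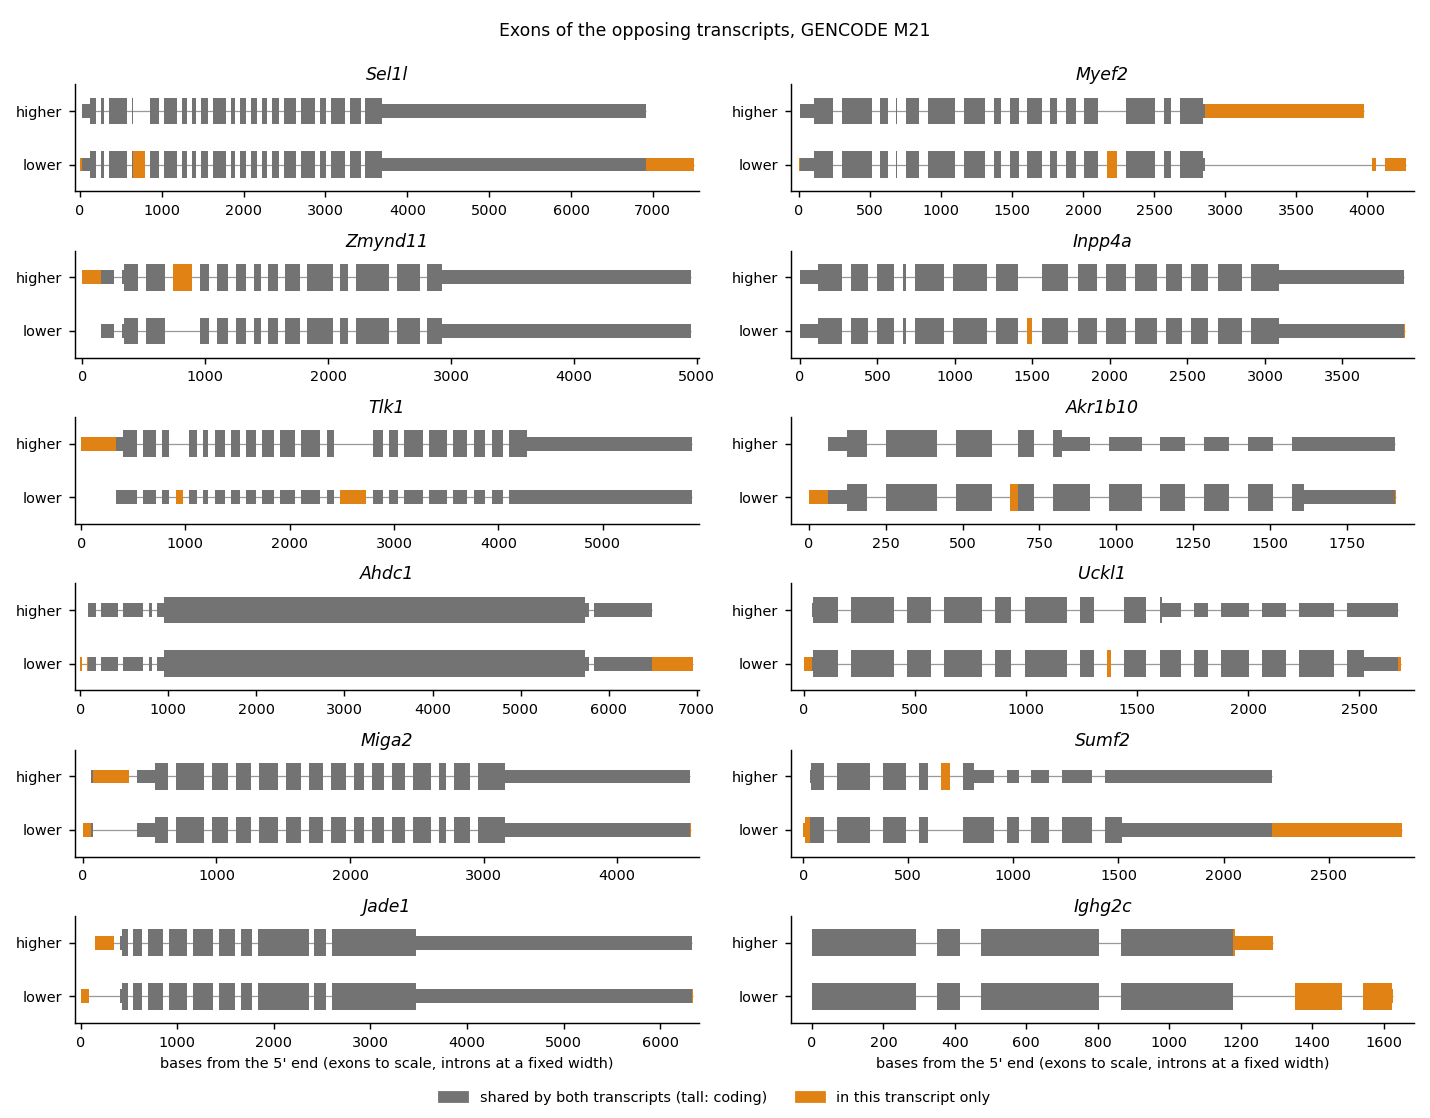
Exons of the leading pair of opposing transcripts in 12 genes, in bases from the 5' end with introns at a fixed width (grey, shared by both transcripts; orange, in that transcript only; tall boxes, coding). The stretch that differs inside the coding sequence is 150 bases in Sel1l, 162 in Zmynd11, 72 in Myef2 and 33 in Inpp4a, while in Jade1, Miga2 and Ahdc1 the coding exons are the same.

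The opposing transcripts shared most bases of the shorter form. The rule takes both from the same gene, so some sharing is built in, and pairs from other genes were not compared. A read that lies in shared bases alone does not tell the forms apart. In GENCODE M21, 52 of the 55 transcripts were found, among them every listed transcript of 22 genes. In the 22 leading pairs, the most abundant higher and the most abundant lower form of each, the shared bases were a median of 98.2% of the shorter transcript (61.0% to 100%), and in 8 pairs one form lay wholly inside the other. The bases found in only 1 form of a pair, at the ends as well as inside, came to a median of 362 (41 in Inpp4a to 1451 in Tmem254a). Both forms were annotated as coding in 14 pairs, and in 4 of them (Jade1, Miga2, Ahdc1 and Zfp667) the coding exons were the same.

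By annotated type, protein-coding transcripts made up 19 of the higher and 22 of the lower ones. Decay-annotated transcripts were 5 of the higher (Akr1b10, Hnrnpk, Mycbp2, Sumf2 and Uckl1) and 2 of the lower (Clip4 and Tmem254a). The 3 retained-intron and the 2 processed transcripts were all lower. Decay-annotated transcripts were 12.7% of those of the 24 genes and 9.96% of the other 482 listed transcripts, and retained-intron ones 5.45% and 10.8%. No test was made of these shares, and the other listed transcripts were not split by direction. The 24 genes had a median of 9.5 annotated transcripts (2 to 34), against 14.0 in the genes with several listed transcripts that all moved one way and 8.0 in all other listed genes.

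The letters GGACT, a core form of the sequence in which m6A is laid down, were searched on the sense strand of each transcript. They stood in 47 of the 52 transcripts of the 24 genes and in 65.9% of the 141767 annotated transcripts of all lengths. The 52 transcripts, of 708 to 15233 bases, were not matched to the others by length or type, so nothing is read from the difference. In 15 of the 22 leading pairs both forms had the same number of them, in 2 the higher form had more and in 5 the lower. None of the stretches shown above holds these letters. A match is a description of the letters and not a measure of methylation, which was not assayed.

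Genes that act on splicing and 3' end choice had medians near 0 between the labels. Of 45 tested splicing regulators of neurons and glia, Hnrnpk among them, 25 were higher and 20 lower (median 0.00 on the log2 scale), with 0 called by edgeR (0% of all genes) and 0 at an unadjusted p under 0.05 (5.26% of all genes). The smallest unadjusted p values were those of Rbm24 (log2 fold change -0.25, SE 0.11), Srsf3 (0.10, SE 0.047) and Hnrnpa1 (0.10, SE 0.051), each with an edgeR adjusted p of 0.93 or above. Of 19 genes of poly(A) site choice, 10 were higher and 9 lower (median 0.01), again with 0 called and 0 at an unadjusted p under 0.05, and Cstf3 came nearest (0.17, SE 0.079). The median over all genes tested was -0.001.

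Of 52 tested markers of cell types other than excitatory neurons, edgeR called 0 (0% of all genes), and 23 had an unadjusted p under 0.05 (5.26% of all genes). Besides the oligodendrocyte and meningeal markers given above, all 6 endothelial markers were lower (median -0.34, summed 148 to 213 CPM in WT and 128 to 172 CPM in KO), and so were all 8 markers of striatal projection neurons (median -0.56, 184 to 354 and 166 to 174 CPM), whose median was 0.02 without WT replicate 2. The medians of interneuron, astrocyte, oligodendrocyte precursor and microglial markers lay between -0.05 and 0.04. Their part in the exchange between transcripts was not tested.

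Reads can be shared with other genes in some of the 24. Near-identical sequence elsewhere was found for Hnrnpk, Myef2, Sumf2 and Tmem254a, whose counts are uncertain for that reason. Exons of another gene overlapped on the same strand in Miga2 and Uckl1 and on the opposite strand in 12 genes, Tlk1, Rnf123, Jade1 and Zmynd11 among them, and 10 genes had neither an overlap nor near-identical sequence elsewhere. Among those 10, Epb41l3 and Mycbp2 were only partly searched for near-identical sequence, since not all of their listed transcripts were found in GENCODE M21.

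The rule sets no size of change. Among the listed transcripts of these genes, the smallest change in the authors' deposited log2 fold ratio was -1.01, in Miga2. At the edge of the rule, the least changed opposing transcripts inside it were those of Akr1b10 and Miga2, both with a log2 ratio of means of -1.01, and of Sel1l with -1.07. Just outside were genes with 2 listed transcripts that both moved one way. Their least changed transcripts were those of Zfand3 (-1.08, from 4.81 to 2.28 FPKM), Dlgap1 (-1.75, from 0.399 to 0.112 FPKM) and Slc17a7 (-1.80, from 8.12 to 2.32 FPKM).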

How the data were processed

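RNA of 6 libraries was selected on oligo(dT) beads, made into strand-marked libraries with dUTP and sequenced in pairs, per the labels' protocols. Per the submitters' processing notes, cutadapt 1.9, HISAT2 2.2.1, StringTie 2.1.6, edgeR and DESeq2 were used, the last pair without a stated version. How genes were counted, on which strand and on which genome build is not given in the sources used here. Whole-number counts per gene, with no normalization, were deposited by the authors, as was a table of listed transcripts with FPKM per library, a log2 fold ratio, p-values and q-values. Of that table the FPKM values were used, and for all 537 transcripts the direction written by the authors matched the sign of the difference in mean FPKM.

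Counts were compared in R 4.3.3 with edgeR 4.0.16 (filterByExpr, TMM factors, quasi-likelihood F-test, Benjamini-Hochberg adjustment over all 20587 genes, threshold 0.05). CPM is scaled by TMM. The share of a gene total is FPKM times length in kilobases times the library's calibration ratio, over the unscaled CPM. It was calibrated on listed genes with 1 annotated transcript and at least 1 CPM, 4 to 5 in each library, whose ratios lay between 1.059 and 1.096. Exons, positions and sequences come from GENCODE M21 (GRCm38), whose starts, ends and strands matched those of all 530 listed transcripts found there. Near-identical genes were sought with blastn 2.17.0 (95% identity over at least 150 bases). Edge values use log2 ratios after adding 0.01 FPKM. Given in full were the 12 genes with the largest summed FPKM among those with a higher and a lower transcript of at least 0.5 FPKM and groups without overlap. The other 12 are given more briefly. Alternatives were DESeq2 1.42.0, limma 3.58.1 (voom), other scalings and filters, a replicate block and leaving out each library. Only the edgeR fit was tested on simulated data, which were gene counts. The genes and lists were chosen with earlier results of these data known. Some genes and lists are not reported here.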

Additional observations from a re-analysis of the deposited data

How the results depend on the processing

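Over all genes, edgeR called 0, DESeq2 32 and limma voom 0, and leaving out each library in turn gave 0 to 2. Of the 24 genes, edgeR, DESeq2 and limma voom called 0 under every alternative run (unadjusted p under 0.05 in 1 by each of the 3 tools), and the lowest adjusted p was 0.534. The replicate numbers do not pair the samples by the labels, and same-numbered libraries deviated together with correlations of -0.0423, 0.0403 and 0.0258. With the replicate number as a block, 0 genes were called (916 at an unadjusted p under 0.05, against 1083 without it), and 0 of the 24.

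The rule found 24 genes with medians in place of means, with transcripts whose groups did not overlap, and without any one library. The authors had listed these transcripts from the same libraries, so that count could hardly change. The rule found 20 with transcripts of at least 0.5 FPKM and 13 with transcripts above 0 in at least 1 library of each group, since transcripts at 0 in a whole group drop out. The median change in share stayed between 28.3 and 31.8 points for the higher and between -35.5 and -28.7 for the lower transcripts when 1 library was left out, an alternative chosen after seeing the data.

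Of 336 alternative values of the gene totals, 323 did not reverse their direction, among them some that rounded to 0. The 13 that reversed, all with 1 library left out and all close to 0, were in 8 genes, whose values without each library in turn ran from -0.10 to 0.06 in Abhd14a, from -0.12 to 0.07 in Ahdc1, from -0.14 to 0.02 in Akr1b10, from -0.04 to 0.01 in Ank2, from -0.06 to 0.01 in Clip4, from -0.08 to 0.08 in Epb41l3, from -0.05 to 0.05 in Zfp667 and from -0.01 to 0.05 in Zmynd11. The cause was not tested. Of the list medians, the microglial one was -0.11 without KO replicate 2, the striatal one 0.02 without WT replicate 2 and the oligodendrocyte one 0.19 without KO replicate 1. Depth limits Mfap4, Ighg2c and Tmem254a most, and transcript FPKM carry no counts of their own, so no counting interval is given for them.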
